A study of Mus musculus with 6 samples.

Results

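The genes described here are 10 components of the contractile filaments and Z-disc of fast skeletal muscle fibres: the myosin light chains Mylpf and Myl1, the troponins Tnni2, Tnnc2 and Tnnt3, the tropomyosin Tpm1, and their partners Mybpc2, Actn3, Myoz1 and Mylk2. They were chosen by name, as the rows of the gene table with these symbols, and make up 10 of its 22036 genes. Earlier results of these data were known when they were chosen. All 10 passed the filter on low counts. The measurements are Nanopore PCR-cDNA read counts from 6 mouse skeletal muscle libraries, 3 labelled MEF2C-GFP and 3 labelled GFP. All animals carried the PRR14 knockout (labelled KO), and muscle was taken 1 month after an adeno-associated virus (AAV) had been injected, encoding either MEF2C, a muscle transcription factor, with green fluorescent protein, or GFP. The comparison asks how muscle gene expression differs between knockout muscle given the virus with MEF2C and knockout muscle given the virus with GFP. No wild-type muscle was part of the libraries analysed here, so the knockout is shared by both groups. The labels do not name the muscle, the age or sex of the mice, or the promoter of the virus. They do not state that replicates were separate animals, so that the p-values reflect only how these samples spread, which may be technical.

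A sarcomere shortens when myosin heads on the thick filament pull on actin in the thin filament. Calcium starts this by binding troponin C, which moves the troponin complex and tropomyosin off the myosin-binding sites of actin, while light chains stiffen the lever arm of myosin. Most of these proteins exist as a fast and a slow form encoded by separate genes, and the set of forms in a fibre helps to set its speed of contraction.

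Each library had reads for 13001 to 13637 genes, from 3370833 to 3900617 listed counts. The 10 skeletal muscle fibre markers were all measured, with summed levels of 127700 to 143490 normalised CPM (read counts scaled to a common library size) in the MEF2C-GFP libraries and 151450 to 180970 in the GFP libraries. Tnnt3 is one of those markers. The counts of Mef2c itself, at 234, 196 and 371 normalised CPM in MEF2C-GFP replicates 1, 2 and 3, against 223, 261 and 236 in the GFP libraries, exceeded all GFP libraries only in replicate 3 (log2 fold change 0.15 ± 0.22 SE, edgeR quasi-likelihood adjusted p = 0.993). Prr14 had 30, 23 and 20 counts in the MEF2C-GFP libraries, against 11, 12 and 15 in the GFP libraries, with no wild-type muscle to set them against. Its log2 fold change was 0.72 ± 0.32 SE (edgeR unadjusted p = 0.0402, adjusted p = 0.856). Whether viral transcripts were counted is not given in the sources used here, and the groups are therefore named by their labels throughout. MEF2C-GFP replicate 3 also stood apart in its slow-fibre genes, described further on. In whole muscle, fewer fibres of a type and less RNA per fibre cannot be told apart.

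The upstream sequences of the light chains are shown because these genes had the largest differences among the 10. Those of Tnnc2, which did not pass the test, and Mybpc2, whose groups overlapped, are shown for contrast. Each is the 250 bases before the transcription start, read 5′ to 3′ on the gene's own strand, from RefSeq on GRCm38.p6. They span chr7:127211358-127211607 (plus strand) for Mylpf, chr1:66945057-66945306 (minus) for Myl1, chr2:164779735-164779984 (minus) for Tnnc2 and chr7:44524670-44524919 (minus) for Mybpc2. The Mylpf and Myl1 windows lie inside the GENCODE spans of these genes. Capitals mark E-boxes, the sequence CANNTG bound by myogenic factors.
Mylpf: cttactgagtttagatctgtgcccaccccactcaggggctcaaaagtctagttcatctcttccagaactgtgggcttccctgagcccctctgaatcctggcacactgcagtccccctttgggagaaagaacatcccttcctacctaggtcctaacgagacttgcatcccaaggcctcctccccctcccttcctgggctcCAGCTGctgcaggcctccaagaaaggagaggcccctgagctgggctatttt
Myl1: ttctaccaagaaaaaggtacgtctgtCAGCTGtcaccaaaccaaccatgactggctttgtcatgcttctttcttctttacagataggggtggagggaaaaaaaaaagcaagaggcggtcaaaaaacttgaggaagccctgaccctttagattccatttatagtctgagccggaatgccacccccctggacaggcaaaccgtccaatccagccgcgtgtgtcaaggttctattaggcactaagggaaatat
Tnnc2: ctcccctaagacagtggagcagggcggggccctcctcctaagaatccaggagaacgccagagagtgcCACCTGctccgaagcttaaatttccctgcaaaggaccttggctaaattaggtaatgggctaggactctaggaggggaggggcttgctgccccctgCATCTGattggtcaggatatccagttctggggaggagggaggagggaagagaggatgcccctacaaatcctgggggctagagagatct
Mybpc2: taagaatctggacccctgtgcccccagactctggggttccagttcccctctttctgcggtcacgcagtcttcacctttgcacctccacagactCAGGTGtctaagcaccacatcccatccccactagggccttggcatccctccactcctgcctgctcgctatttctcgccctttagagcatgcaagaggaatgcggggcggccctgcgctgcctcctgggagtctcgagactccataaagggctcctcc
RefSeq promoters were matched for 5 of the 10 genes, the fifth being Tpm1. Each of the 5 windows held at least 1 E-box on either strand, as did 66.2% of all 32851 promoter windows of the same length. The E-box of Mylpf began 51 bases and that of Myl1 224 bases before the start, and both read CAGCTG, a sequence picked after seeing these windows and found in 13.0% of all promoters. The Tnnc2, Tpm1 and Mybpc2 windows held other E-box letters. CAGCTG is not particular to the light chains. It was also in windows of Acta1 and of the slow counterparts Myl2, Tnni1, Tpm3, Mybpc1 and Myoz2, described further on. The windows of the slow counterparts Myl3, Tnnc1, Tnnt1 and Actn2 lacked it. None of the 5 windows matched the MEF2 motif, which 2.92% of all promoters hold, whereas the Myoz2 window did. No match says only that these letters are not in the windows.

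Both light chain genes were lower in the MEF2C-GFP libraries than in the GFP libraries, each by about the same amount. Mylpf codes for the regulatory light chain of fast fibres, and Myl1 for their essential light chains. No other member passed the test. Mylpf (ENSMUSG00000030672, a protein-coding gene on GRCm38 chromosome 7, 127208890 to 127214298, plus strand) had levels of 21664, 23615 and 20866 normalised CPM in MEF2C-GFP replicates 1, 2 and 3, against 35156, 41716 and 37432 in GFP replicates 1, 2 and 3. All 3 MEF2C-GFP values lay below all 3 GFP values, with the highest of the first group well under the lowest of the second. The mean was 22049 ± 1414 in MEF2C-GFP and 38102 ± 3331 in GFP libraries (SD, n = 3 each), so that it fell by 42.1% in MEF2C-GFP (log2 fold change -0.79 ± 0.11 SE, edgeR quasi-likelihood adjusted p = 0.0189). By p-value Mylpf was number 3 of the 9229 genes tested. It lies 245.3 kb from Prr14, the gene knocked out in all 6 libraries.

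Myl1 (ENSMUSG00000061816, chromosome 1, 66924295 to 66945404, minus strand, protein-coding) had 12394, 13565 and 15302 normalised CPM in MEF2C-GFP replicates 1, 2 and 3, against 22244, 26347 and 22209 in the GFP libraries. The groups again did not overlap, and here MEF2C-GFP replicate 3 was the highest of its group, whereas it was the lowest for Mylpf. Means were 13754 ± 1463 in MEF2C-GFP and 23600 ± 2379 in GFP libraries (SD, n = 3 each), and the gene fell by 41.7% in MEF2C-GFP (log2 fold change -0.78 ± 0.12 SE, edgeR adjusted p = 0.0342, rank 4 of 9229). Thus 2 of the 10 genes were called, both lower, against 0.0433% of all tested genes called lower. Over all genes, 7 were called, 3 higher and 4 lower.

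**Figure D1:**
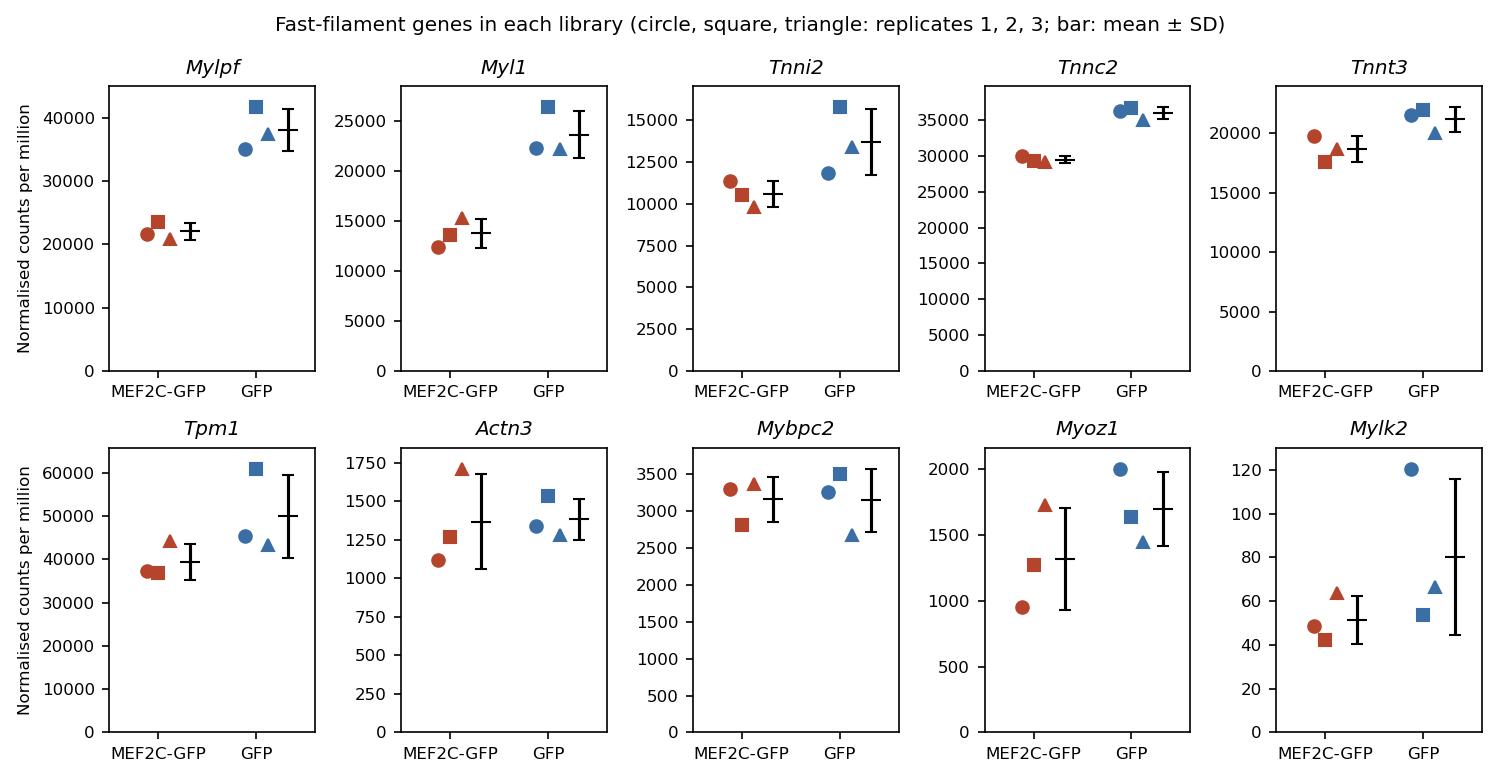
Normalised CPM (vertical axis, from 0) for each of the 10 genes in the 3 MEF2C-GFP (left, red) and 3 GFP (right, blue) libraries, with circles, squares and triangles for replicates 1, 2 and 3 and a bar for mean ± SD. Mylpf lay between 20866 and 23615 in MEF2C-GFP and between 35156 and 41716 in GFP libraries, while the groups overlapped for Tpm1, Actn3, Mybpc2, Myoz1 and Mylk2.

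The plot of member levels by library sets the light chains beside the other genes, each on its own scale. The direction held with each library left out, but the calls did not all hold. With MEF2C-GFP replicate 3 left out, the log2 fold changes were -0.75 for Mylpf (edgeR adjusted p = 0.0108) and -0.86 for Myl1 (adjusted p = 0.00664). The adjusted p of Mylpf missed 0.05 without MEF2C-GFP replicate 1 (0.106) or 2 (0.119), and without GFP replicate 2 (0.146) or 3 (0.214). That of Myl1 missed it without MEF2C-GFP replicate 1 (0.114) or 2 (0.189) and without GFP replicate 1 (0.0555), 2 (0.213) or 3 (0.214). The count of genes called over the table was 22 without MEF2C-GFP replicate 3, 3 without replicate 1 and 1 without replicate 2, and it was 2, 2 and 0 without GFP replicates 1, 2 and 3.

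**Figure D2:**
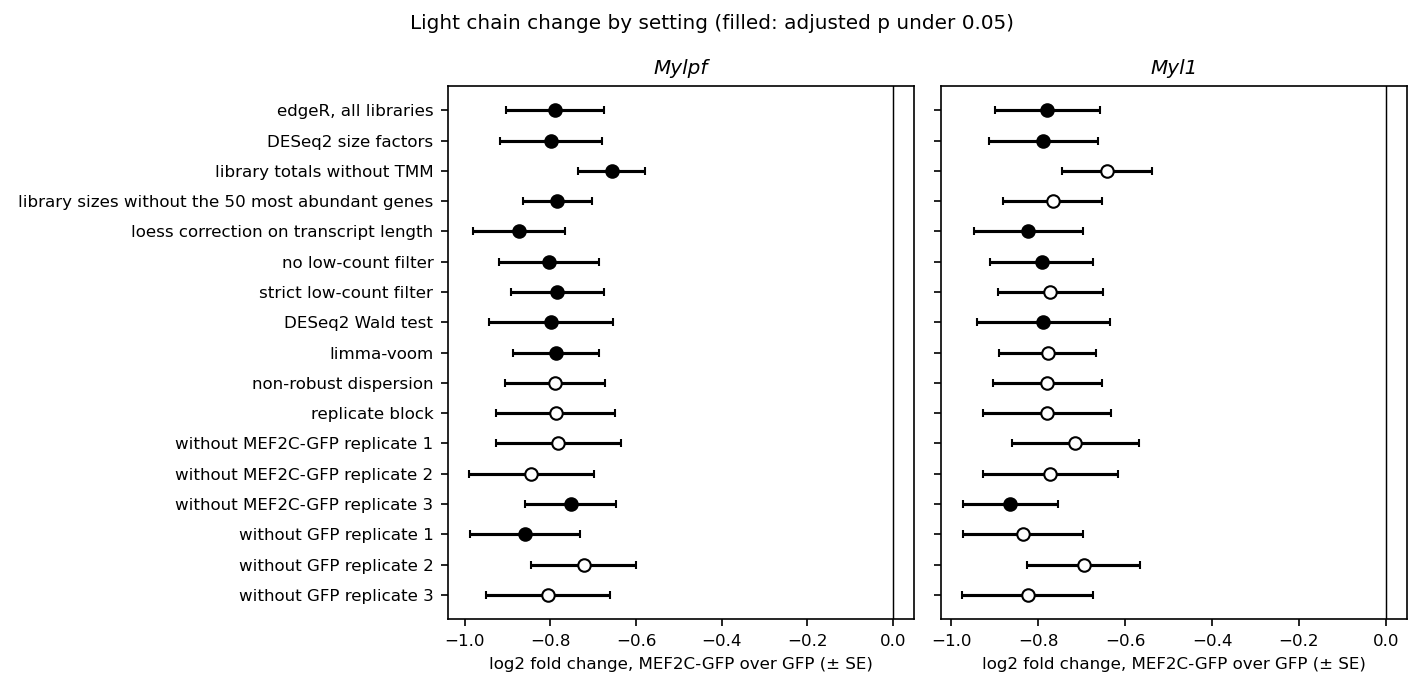
Log2 fold change ± SE (MEF2C-GFP over GFP, horizontal axis) of Mylpf and Myl1 with all libraries (top) and under 16 other settings, filled where the adjusted p was under 0.05. All points lie left of 0, from -0.87 to -0.66 for Mylpf and from -0.86 to -0.64 for Myl1, and 6 of the 16 alternatives for Mylpf and 11 for Myl1 are open.

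The plot of both light chains by setting shows the same direction throughout, with calls that depend on the setting. Levels of the light chains were also set against each other, per kilobase of the longest transcript. This division sets the size of the ratio, but not whether the groups overlap. Mylpf reads per kilobase were 2.47, 2.46 and 1.93 times those of Myl1 in MEF2C-GFP replicates 1, 2 and 3, against 2.23, 2.24 and 2.38 times in the GFP libraries, and these groups overlapped (means of 2.28 ± 0.311 in MEF2C-GFP and 2.28 ± 0.0845 in GFP libraries, SD, n = 3 each). The light chains together took 3.42%, 3.90% and 3.92% of all listed counts in the MEF2C-GFP libraries, against 5.75%, 6.14% and 5.77% in the GFP libraries. Set against the reads of the other 8 members within the same library, there were 32.8, 37.3 and 33.3 light chain reads per 100 in MEF2C-GFP replicates 1, 2 and 3, against 47.1, 47.9 and 50.9 in the GFP libraries. This ratio does not depend on scaling between libraries, and its groups did not overlap. The genes it sets apart are those called in these same data, so its direction is no separate support for the calls.

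The 3 fast troponins form the calcium switch of the thin filament. None passed the test, although in normalised CPM the MEF2C-GFP values lay below the GFP values without overlap for all 3, as for 5.33% of all genes. For Tnnt3 this depended on the scaling, as described below. Tnnc2 (ENSMUSG00000017300, chromosome 2, 164777161 to 164779967, minus strand), fast troponin C, binds calcium. It had 30047, 29297 and 29092 normalised CPM in the MEF2C-GFP libraries, against 36243, 36663 and 35072 in the GFP libraries, the smallest spread of the 10 genes relative to the mean in either group. The means were 29479 ± 503 in MEF2C-GFP and 35993 ± 825 in GFP libraries (SD, n = 3 each; log2 fold change -0.29 ± 0.10 SE, edgeR unadjusted p = 0.0144, adjusted p = 0.793). The Ube2c gene overlaps Tnnc2 on the other strand, but had at most 23 counts in a library.

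Tnni2 (ENSMUSG00000031097, chromosome 7, 142441808 to 142444410, plus strand) encodes fast troponin I, the inhibitory subunit. Its values were 11382, 10527 and 9815 normalised CPM in MEF2C-GFP replicates 1, 2 and 3, against 11839, 15784 and 13415 in GFP replicates 1, 2 and 3. The gap between the groups was narrow, between MEF2C-GFP replicate 1 and GFP replicate 1 (log2 fold change -0.37 ± 0.13 SE, edgeR unadjusted p = 0.0101, adjusted p = 0.749). Tnnt3 (ENSMUSG00000061723, chromosome 7, 142498836 to 142516009, plus strand) encodes fast troponin T, which anchors the complex to tropomyosin, and begins 54.42 kb beyond Tnni2. It had 19778, 17633 and 18666 normalised CPM in the MEF2C-GFP libraries, against 21560, 21976 and 20001 in the GFP libraries. MEF2C-GFP replicate 1 lay just below GFP replicate 3 (log2 fold change -0.18 ± 0.11 SE, edgeR unadjusted p = 0.117, adjusted p = 0.928). This separation of Tnnt3 depended on the scaling. With library totals its groups overlapped and its log2 fold change was -0.05. MEF2C-GFP replicate 3 held 77134 Tnnt3 counts of 3814844 listed, against 75475 of 3900617 in GFP replicate 3.

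Tpm1 (ENSMUSG00000032366, chromosome 9, 67022590 to 67049406, minus strand) encodes alpha-tropomyosin, the strand that covers the myosin-binding sites of actin, and is also transcribed outside fast fibres. It was the most abundant gene tested, with 37300, 36794 and 44259 normalised CPM in the MEF2C-GFP libraries, against 45383, 60938 and 43312 in the GFP libraries. The groups overlapped, because MEF2C-GFP replicate 3 exceeded GFP replicate 3, and GFP replicate 2 stood above all others (log2 fold change -0.34 ± 0.14 SE, edgeR unadjusted p = 0.0295, adjusted p = 0.841). Without GFP replicate 2 the log2 fold change of Tpm1 was -0.17.

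The remaining 4 genes act around the filaments. Mybpc2 (ENSMUSG00000038670, chromosome 7, 44501699 to 44524656, minus strand), fast myosin-binding protein C of the thick filament, had 3296, 2815 and 3370 normalised CPM in the MEF2C-GFP libraries, against 3265, 3509 and 2679 in the GFP libraries (log2 fold change 0.0042 ± 0.13 SE, edgeR adjusted p = 0.998). Actn3 (ENSMUSG00000006457, chromosome 19, 4861216 to 4877909, minus strand), the fast alpha-actinin that crosslinks actin at the Z-disc, had 1121, 1269 and 1712 in the MEF2C-GFP libraries, against 1338, 1532 and 1279 in the GFP libraries (log2 fold change -0.02 ± 0.15 SE, edgeR adjusted p = 0.997). The groups overlapped for both genes, and the sign of either depended on the scaling: Mybpc2 was at -0.0046 with DESeq2 size factors and Actn3 at 0.12 with library totals, where the median of all genes was 0.14.

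Myoz1 (ENSMUSG00000068697, chromosome 14, 20649107 to 20656540, minus strand) encodes a Z-disc protein that binds alpha-actinin and calcineurin. Its values were 953, 1270 and 1726 normalised CPM in MEF2C-GFP replicates 1, 2 and 3, against 2002, 1633 and 1446 in the GFP libraries (log2 fold change -0.36 ± 0.22 SE, edgeR adjusted p = 0.930). The groups overlapped, and the log2 fold change of Myoz1 was -0.18 without MEF2C-GFP replicate 1, -0.61 without MEF2C-GFP replicate 3 and -0.24 without GFP replicate 1. Mylk2 (ENSMUSG00000027470, chromosome 2, 152911352 to 152923068, plus strand) encodes the skeletal muscle kinase of the regulatory light chain. It was the least abundant of the 10, with 48.5, 42.3 and 63.6 normalised CPM in the MEF2C-GFP libraries, against 120.6, 53.6 and 66.3 in the GFP libraries (log2 fold change -0.64 ± 0.32 SE, edgeR adjusted p = 0.928). GFP replicate 1 alone held the high Mylk2 value, and without it the log2 fold change was -0.23.

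Over the 10 genes, 9 log2 fold changes were negative and 1 was positive, with a median of -0.35, against 0.01 over all 9229 genes and -0.05 over the 100 most abundant genes, of which 73 were negative. In normalised CPM the groups did not overlap, with MEF2C-GFP lower, for 5 of the 10 genes, against 5.33% of all genes. The reverse, with MEF2C-GFP higher, held for 0 of the 10, against 5.75% of all genes. Tnnt3, 1 of the 5 that lay lower, overlapped with library totals. The unadjusted edgeR p was under 0.05 for 5 of the 10, all lower in MEF2C-GFP, against 2.35% of all genes. Because the 10 genes were chosen with earlier results of these data known, these shares describe the list and do not test it. Together the 10 genes took 13.9%, 14.4% and 15.7% of listed counts in the MEF2C-GFP libraries, against 17.9%, 19.0% and 17.1% in the GFP libraries. The members other than the light chains took 10.4%, 10.5% and 11.8% in the MEF2C-GFP libraries, against 12.2%, 12.8% and 11.3% in the GFP libraries, which overlapped.

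**Figure D3:**
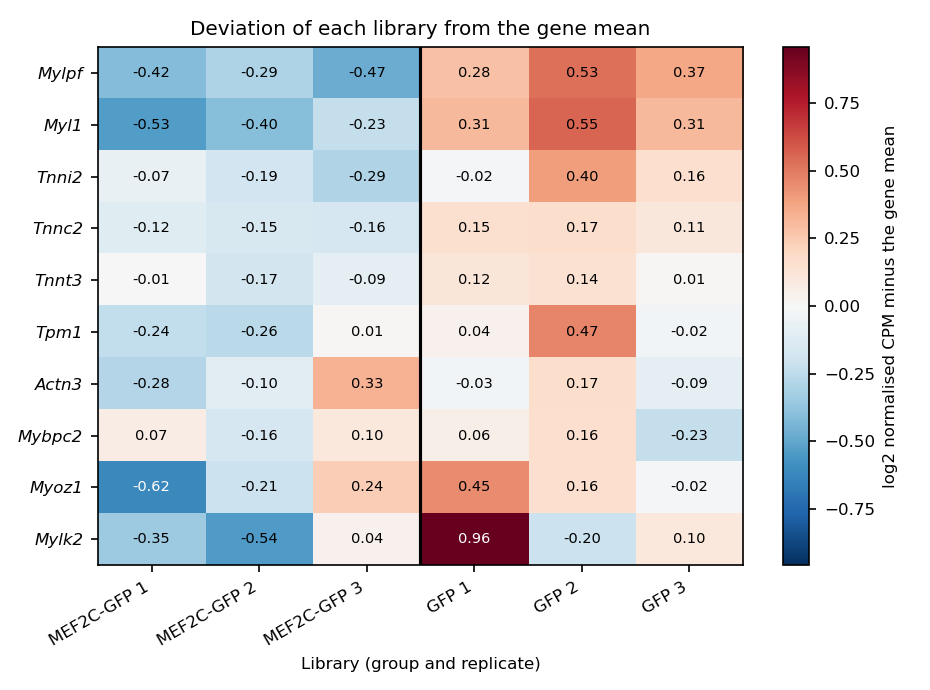
Log2 normalised CPM of each of the 10 genes (rows) in each library (columns, MEF2C-GFP left of the line) minus the gene's mean over the 6 libraries, red above and blue below. Mylpf and Myl1 are blue in all 3 MEF2C-GFP and red in all 3 GFP libraries, while Actn3, Mybpc2 and Mylk2 are among the rows that change colour within a group.

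The map of library deviations also shows how the genes varied within a group. MEF2C-GFP replicate 3 was above the gene mean for Tpm1, Actn3, Mybpc2, Myoz1 and Mylk2, but below it for both light chains and all 3 troponins. The 5 other genes whose profile over the 6 libraries lay nearest to the average profile of the 10, of 4500 candidates with at least 50 counts on average, were Tulp4, Cacng1, Smn1, Calcoco1 and C1galt1c1. Their root mean square differences from that profile were 0.0451 (Tulp4), 0.0656 (Cacng1), 0.0671 (Smn1), 0.0687 (Calcoco1) and 0.0728 (C1galt1c1) on the log2 scale. Cacng1 encodes the gamma subunit of the skeletal muscle calcium channel.

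Levels were compared between genes per kilobase of the longest annotated transcript. The order of the genes depends on this division, and whether it suits these Nanopore reads was not tested. By normalised CPM without it, Tpm1 ranked 1, Tnnc2 4, Mylpf 5, Tnnt3 7, Myl1 8 and Tnni2 13 among all genes tested. In MEF2C-GFP libraries Tnnc2 led with a mean level of 42113 ± 718 CPM per kilobase (SD, n = 3) and Mylpf followed with 28785 ± 1846, a gap larger than the SD of either. Next came Tnnt3 at 17324 ± 994, Tpm1 at 13651 ± 1444, Myl1 at 12712 ± 1352 and Tnni2 at 11816 ± 877, where the last 3 were within an SD of their neighbours. In GFP libraries Tnnc2 at 51419 ± 1178 and Mylpf at 49742 ± 4348 differed by less than the SD of Mylpf. Myl1 came next there, at 21811 ± 2199, before Tnnt3 at 19628 ± 965, Tpm1 at 17259 ± 3334 and Tnni2 at 15284 ± 2219, each within the larger SD of its neighbour. Myoz1, Mybpc2, Actn3 and Mylk2 were the lowest 4 in both groups, from 1021 for Myoz1 to 17.4 for Mylk2 in MEF2C-GFP libraries and from 1314 to 27.2 in GFP libraries. Myoz1 and Mybpc2 differed by less than the SD of Myoz1 in MEF2C-GFP libraries.

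Reads of each gene were also divided by those of Acta1, the skeletal alpha-actin of both fast and slow fibres, in the same library. Acta1 itself had 38798, 35162 and 32731 normalised CPM in the MEF2C-GFP libraries, against 40495, 54309 and 45115 in the GFP libraries, with no overlap (log2 fold change -0.39 ± 0.13 SE, edgeR adjusted p = 0.715). The log2 ratio of Mylpf to Acta1 was -0.84, -0.57 and -0.65 in MEF2C-GFP replicates 1, 2 and 3, against -0.20, -0.38 and -0.27 in the GFP libraries. That of Myl1 was -1.65, -1.37 and -1.10 in the MEF2C-GFP libraries, against -0.86, -1.04 and -1.02 in the GFP libraries. The groups did not overlap for either light chain, with a mean difference of -0.40 for each (two-sided exact permutation p = 0.1, the smallest that 3 against 3 allows, adjusted p = 0.4 over 10 genes). For the other 8 genes the ratios overlapped, with differences of 0.02 for Tnni2, 0.10 for Tnnc2, 0.20 for Tnnt3, 0.06 for Tpm1, 0.35 for Actn3, 0.39 for Mybpc2, -0.01 for Myoz1 and -0.19 for Mylk2. The ratio shows unequal change between genes, not which of them changed.

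Each of 9 members was paired with a counterpart, called its slow gene here, and Mylk2 has none in the list. Actn2 and Mybpc1 are not restricted to slow fibres. Their means in the GFP libraries were 716 and 711 normalised CPM, while the other counterparts ranged from 5.26 (Tnni1) to 89.2 (Tpm3). The share of reads from Actn2 or Mybpc1 is therefore not a measure of slow-fibre content. The coding sequences of the pairs were 63.4% to 78.9% identical (longest open reading frames). None of the 9 slow genes passed the test, with edgeR adjusted p of at least 0.749. Their log2 fold changes were all positive, with a median of 3.12. For 6 of the 9, namely Myl2, Myl3, Tnni1, Tnnc1, Tnnt1 and Tpm3, all MEF2C-GFP libraries lay above all GFP libraries, against 5.75% of all genes. Myl2, the slow regulatory light chain, had 157, 209 and 24.2 normalised CPM in MEF2C-GFP replicates 1, 2 and 3, against 5.33, 0.957 and 14.0 in the GFP libraries. The high values came from MEF2C-GFP replicates 1 and 2, with replicate 3 much nearer the GFP libraries, and the value of GFP replicate 2 rested on 3 counts (log2 fold change 4.21 ± 1.24 SE, edgeR adjusted p = 0.808).

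**Figure D4:**
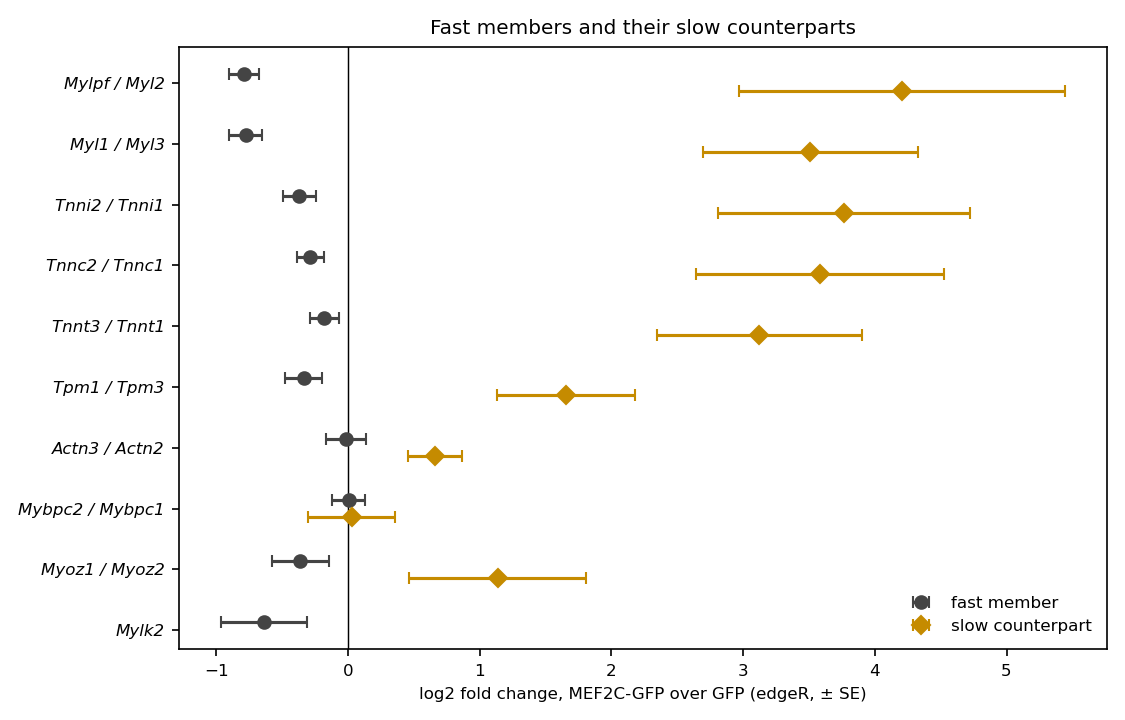
Log2 fold change ± SE (MEF2C-GFP over GFP, edgeR, horizontal axis) of the 10 fast genes (circles) and their 9 slow counterparts (diamonds), fast above slow in each row. Light chains lie at -0.79 and -0.78, and slow counterparts run from 0.03 for Mybpc1 to 4.21 for Myl2 with wide errors.

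The plot of fold changes for fast and slow genes shows how much wider the errors of the slow genes are. Myl3, the slow essential light chain, had 588, 510 and 125 normalised CPM in the MEF2C-GFP libraries, against 17.5, 45.3 and 44.5 in the GFP libraries (log2 fold change 3.51 ± 0.82 SE, edgeR adjusted p = 0.749). The slow troponins had log2 fold changes of 3.77 ± 0.96 for Tnni1, 3.58 ± 0.94 for Tnnc1 and 3.12 ± 0.78 for Tnnt1 (SE), and the slow tropomyosin Tpm3 one of 1.66 ± 0.53. In all 6 of these genes MEF2C-GFP replicate 3 was the lowest of its group. With that library left out, 4 slow counterparts were called higher by the same edgeR test: Tnni1 at a log2 fold change of 4.23 ± 0.39 SE (adjusted p = 0.0189), Tnnt1 at 3.56 ± 0.24 (4.21e-05), Tpm3 at 2.03 ± 0.16 (4.21e-05) and Actn2 at 0.86 ± 0.13 (0.0189). Myl2 at 4.69 ± 0.83 (adjusted p = 0.488) and Myl3 at 3.94 ± 0.45 (0.171) were not called there. This library was singled out after its values were seen, and with any 1 of the other 5 left out edgeR called 0 of the 9 (smallest adjusted p from 0.714 to 0.9998). The DESeq2 Wald test on all 6 libraries called 4, namely Tnni1, Tnnc1, Tnnt1 and Myl3, all higher. Over the whole table that test called 22 genes, 8 of them lower. By edgeR, 7 of the 9 were higher with an unadjusted p under 0.05, as were 310 of all 9229 genes. Log2 fold changes were 0.66 ± 0.20 for Actn2, 1.14 ± 0.67 for Myoz2 and 0.03 ± 0.33 for Mybpc1, whose groups overlapped with all 6 libraries.

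The slow gene's share of the reads of its pair needs no scaling between libraries. For Myl2 with Mylpf it was 0.721%, 0.876% and 0.116% in MEF2C-GFP replicates 1, 2 and 3, against 0.0152%, 0.00229% and 0.0375% in the GFP libraries. For Myl3 with Myl1 it was 4.53%, 3.63% and 0.808% in the MEF2C-GFP libraries, against 0.0785%, 0.172% and 0.200% in the GFP libraries. The lowest share of its pair's reads in any of the 6 libraries was 99.1% for Mylpf and 95.5% for Myl1. For the troponin pairs the slow share in MEF2C-GFP replicates 1, 2 and 3 was 0.954%, 0.856% and 0.189% (Tnni1), 0.594%, 0.696% and 0.120% (Tnnc1), and 0.434%, 0.541% and 0.107% (Tnnt1), and in GFP libraries it was at most 0.0700% (Tnni1), 0.0466% (Tnnc1) and 0.0556% (Tnnt1). The fast share differed by -0.553 percentage points for Mylpf, -2.84 for Myl1, -0.625 for Tnni2, -0.438 for Tnnc2, -0.324 for Tnnt3 and -0.550 for Tpm1, with groups that did not overlap (two-sided exact permutation p = 0.1 for each, the smallest possible, adjusted p = 0.15 over 9 pairs).

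**Figure D5:**
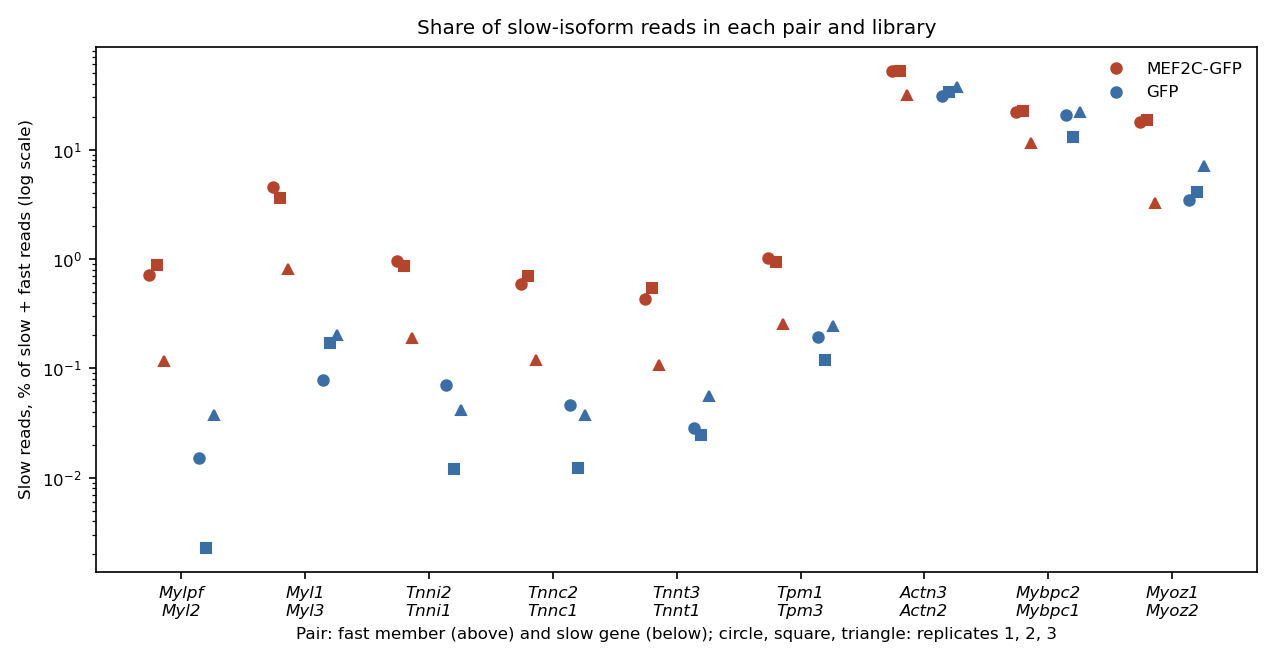
Share of each pair's reads that came from the slow gene (percent, log axis) in the MEF2C-GFP (left, red) and GFP (right, blue) libraries, with circles, squares and triangles for replicates 1, 2 and 3. In the first 6 pairs every MEF2C-GFP point lies above every GFP point, with replicate 3 lowest of its group, and in the last 3 pairs the groups overlap.

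The plot of slow shares shows the other 3 pairs on the same axis. The slow share was 51.9%, 52.4% and 31.4% for Actn2 with Actn3 in the MEF2C-GFP libraries, against 31.1%, 33.9% and 37.3% in the GFP libraries (two-sided exact permutation p = 0.3, adjusted 0.386 over 9 pairs). For Myoz2 with Myoz1 it was 18.0%, 18.5% and 3.23% in the MEF2C-GFP libraries, against 3.46%, 4.07% and 7.15% in the GFP libraries (exact p = 0.4, adjusted 0.45). For Mybpc1 with Mybpc2 it was 22.0%, 22.4% and 11.4% in the MEF2C-GFP libraries, against 20.7%, 13.1% and 21.9% in the GFP libraries (exact p = 1). Replicate 3 was the lowest MEF2C-GFP library in these pairs too.

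Other genes of the same filaments and pathways were read from lists. Of 11 tested genes of the filaments shared by fast and slow fibres, 0 were called, 3 were positive and 8 negative, with a median log2 fold change of -0.05. Those with the smallest p were Tpm2, beta-tropomyosin, at -0.40 ± 0.12 SE and Tmod4, which caps thin filaments in skeletal muscle, at -0.38 ± 0.12 (edgeR adjusted p = 0.660 and 0.684). Of 6 fast myosin and calcium-handling genes, 1 was called lower, Pvalb, the calcium buffer parvalbumin, at 8005 ± 650 normalised CPM in MEF2C-GFP and 14688 ± 1644 in GFP libraries (SD, n = 3 each; log2 fold change -0.88 ± 0.12 SE, edgeR adjusted p = 0.0162). Pvalb was not called without MEF2C-GFP replicate 2 (edgeR adjusted p = 0.169) or without GFP replicate 2 (0.129) or 3 (0.140), nor with non-robust dispersion (0.0780) or the replicate block (0.0950). The list's median was -0.33, with 5 of 6 negative.

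Of 7 tested genes around light chain phosphorylation, 0 were called, and 4 were positive and 3 negative (median 0.01). Calm2, a calmodulin gene, was at -0.22 ± 0.13 SE (edgeR adjusted p = 0.928), and Ppp1r12b, a targeting subunit of myosin phosphatase, at 0.26 ± 0.19 (adjusted p = 0.965). Of 8 tested Z-disc and calcineurin genes, 0 were called and 4 were positive (median -0.02), with Flnc, filamin C, at 0.44 ± 0.15 (edgeR adjusted p = 0.753) and Tcap, a titin cap, at -0.20 ± 0.12 (adjusted p = 0.928). Of 9 regulators of the fast programme, 0 were called and 4 were positive (median -0.09). Mafa, a transcription factor active at fast myosin genes, had 6.24 ± 0.279 normalised CPM in MEF2C-GFP and 12.3 ± 2.36 in GFP libraries (SD, n = 3 each; log2 fold change -0.97 ± 0.25 SE, edgeR adjusted p = 0.413). In the lists with 0 calls, the unadjusted edgeR p was under 0.05 for 1 higher and 3 lower filament genes, 0 phosphorylation genes, 1 higher Z-disc gene, and 2 regulators, and the DESeq2 Wald test and voom also called 0 in each. Of all 9229 genes, 527 had an unadjusted p under 0.05.

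Markers of other cell types were summed beside these results. Slow-fibre markers came to 422 to 1694 normalised CPM in the MEF2C-GFP libraries and 199 to 265 in the GFP libraries, with 9 of 9 tested positive. EdgeR called 0 of them, and 8 were higher with an unadjusted p under 0.05, as were 310 of all 9229 genes. The DESeq2 Wald test called 5 of them higher, against 22 genes called over the whole table. Of these markers, 6 are also slow counterparts above. Blood markers came to 4393 to 8631 in the MEF2C-GFP libraries and 3081 to 4166 in the GFP libraries, with 5 of 5 positive. Smooth muscle and pericyte markers came to 928 to 1010 in the MEF2C-GFP libraries and 706 to 919 in the GFP libraries, with 6 of 6 positive. By edgeR 0 blood or smooth muscle markers were called, with 2 in each list at an unadjusted p under 0.05, and by the DESeq2 Wald test 1 smooth muscle marker, Myh11. Granulocyte markers came to 1115, 3.74 and 2.42 in MEF2C-GFP replicates 1, 2 and 3, against 2.07, 2.23 and 70.5 in the GFP libraries. Of the 5 granulocyte genes, 1 passed the low-count filter, S100a8, whose log2 fold change was 3.79 with all libraries and -2.68 without MEF2C-GFP replicate 1 (not called by edgeR in either). For endothelial, fibro-adipogenic, macrophage, adipocyte, Schwann, tendon and satellite cell markers the summed levels overlapped between the groups, and edgeR called 0 of them. Of the tested genes, 4 of 4 tendon and 4 of 4 adipocyte markers were positive, with 2 and 1 at an unadjusted p under 0.05, and 5 of 5 Schwann markers were negative, with 1 under 0.05. Positive values were also found for 3 of 5 endothelial, 3 of 5 fibro-adipogenic, 4 of 5 macrophage and 0 of 3 satellite cell markers, with 0 under 0.05. No listed marker was at 0 in every library. The part of these cell types in the light chain result was not tested.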

How the data were processed

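Counts per gene were available for 6 Nanopore PCR-cDNA libraries, 3 MEF2C-GFP and 3 GFP, grouped by the treatment label. The authors deposited whole-number read counts, per the file headers, with CPM of the same libraries, and the listed counts were 95.6% to 96.4% of the totals behind those deposited CPM. In order of replicate number, MEF2C-GFP libraries had 3838894, 3824003 and 3814844 listed counts, and GFP libraries 3370833, 3471928 and 3900617. The submitters' processing notes name minimap2, GRCm38 and DESeq2 1.6.3, without roles. Not given in the sources used here were the counter, annotation, use of strand and read filters. Rows that name no gene (30, holding 0 counts) were left out, and 22022 identifiers matched GENCODE vM21 for coordinates and transcript lengths. Reads carry no molecular identifiers, so that counting precision covers counting error only, and 3 counts correspond to 0.769 to 0.890 CPM.

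The 10 genes, the lists and the tests were chosen with earlier results of these data known. All 6 libraries entered edgeR 4.0.16 (R 4.3.3; filter by group, TMM, robust quasi-likelihood test, no covariate), and genes were called where the adjusted p (Benjamini-Hochberg, over all 9229 tested genes) was under 0.05. SEs came from the F statistic. Normalised CPM use TMM-scaled listed totals. Pair shares and ratios to Acta1 were compared by exact permutation. The text names all 10 genes, their 9 slow counterparts, Acta1, Mef2c, the called members of each list (or up to 2 with the smallest p), and the 5 genes of nearest profile. The result of 1 gene that this rule names is left out. Alternatives were DESeq2 1.42.0 size factors and its Wald test, library totals, library sizes without the 50 most abundant genes, a loess correction on transcript length, no filter, a stricter filter, voom in limma 3.58.1, non-robust dispersion, a replicate block, and leaving out each library. Same-numbered libraries did not deviate together (correlations of -0.23, 0.05 and -0.25), and the numbers were not treated as pairs. No same-group libraries agreed within sampling noise (chi-square per degree of freedom 4.95 to 10.3).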

Additional observations from a re-analysis of the deposited data

How the results depend on the processing

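Mylpf and Myl1 stayed lower in MEF2C-GFP under all 16 alternatives. The median log2 fold change of the 10 genes stayed negative under all 16, from -0.41 to -0.21. The 7 genes called became 3 with library sizes lacking the 50 most abundant genes, with the strict filter and with voom, 35 without a filter, 22 with the DESeq2 Wald test and 0 with non-robust dispersion. With 1 library left out they ranged from 0 to 22. The 2 members called became 1 with library totals, without the 50 most abundant genes, with the strict filter and with voom, and 0 with non-robust dispersion. With 1 library left out they ranged from 0 to 2. Where edgeR called 0 genes, 557 (non-robust) and 386 (without GFP replicate 3) had an unadjusted p under 0.05. The replicate block, for numbers that did not pair the samples, gave 2 genes and 0 members called, with Mylpf at an adjusted p of 0.0950 and Myl1 at 0.119, and 4 members under an unadjusted 0.05. Mybpc2 was at -0.0046 with DESeq2 size factors and Wald test, -0.016 with the length correction and -0.0084 without a filter, and from -0.10 to 0.086 with 1 library left out. Actn3 was at 0.12 with library totals and 0.0012 without the 50 most abundant genes, and from -0.21 to 0.10 with 1 library left out. The cause of these changes was not tested. Of 114 pair shares and ratios with 1 library left out, 9 changed sign. A count of 0 moved by over 1 SD, but with 3 libraries per group no value could, so this count shows nothing about stability. Precision is limited by 3 libraries per group and, for Mylk2, by a mean of 241 counts.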

Other observations

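Differences between the groups were set side by side for the fast and slow gene of each of the 9 pairs. Per kilobase of the longest transcript, the mean of MEF2C-GFP minus that of GFP libraries was -20957 CPM for Mylpf and 139 for Myl2, which is 0.662% of the size of the Mylpf difference. For Myl1, the difference in Myl3 was 3.63% of the difference in the fast gene. For the troponin pairs the slow difference was 0.908% (Tnni1), 1.92% (Tnnc1) and 2.45% (Tnnt1) of the fast one, and it was 2.24% for Tpm3 and 14.3% for Myoz2. For the actinins the mean difference was -5.44 CPM per kilobase for Actn3 and 137 for Actn2, and for the myosin-binding proteins it was 2.52 for Mybpc2 and 3.38 for Mybpc1. These are differences of means with 1 value per pair, and no test was made of them. The percentages depend on the division by length where the 2 transcripts of a pair differ. Tnni1 had 2153 bases and Tnni2 895, and Myoz2 had 2412 and Myoz1 1289. Undivided means in MEF2C-GFP and GFP libraries were 73.0 and 5.26 normalised CPM for Tnni1, and 10575 and 13679 for Tnni2.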
